A study of Homo sapiens with 4 samples.

Results

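The ubiquitin-specific proteases (USPs) were followed in cytoplasmic polyadenylated RNA of SUM159 cells, an established human line of triple-negative breast cancer with a mesenchymal look. Cells had received H3B-8800, a small molecule that inhibits the spliceosome, or its vehicle DMSO for 12 hours, and each group had 2 libraries. All genes named USP followed by a number were taken, with or without a closing letter and without rows of chromosome Y. This gave 47 of the 15902 genes in the files and 824 of their 142206 introns, 1 transcript per gene. For each intron the files gave the reads inside it (intronic reads) and allowed the reads that bridge it (spliced reads) to be computed. The comparison asks what the inhibitor did to spliced and to intron-containing USP RNA outside the nucleus.

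USPs are the largest family of deubiquitinases, cysteine proteases that cut ubiquitin from proteins or trim ubiquitin chains, and thereby oppose the ubiquitin ligases. Family members differ in their targets: some recycle ubiquitin at the proteasome, others act on DNA repair factors, histones, the p53 regulator MDM2 or receptors on endosomes. Many are long genes with many introns. H3B-8800 binds the SF3b complex, which recognises the branch point near the 3′ end of an intron.

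The H3B-8800 libraries totalled 58000000 and 62000000 reads and the DMSO libraries 64000000 each. USP introns held 3421 and 3739 intronic reads in H3B-8800 cells, against 1823 and 1718 in DMSO cells. Their spliced reads, counted at each intron bridged, numbered 42789 and 45379 in H3B-8800 cells and 49264 and 49537 in DMSO cells. The mesenchymal markers VIM, CAV1, FN1, AXL, CD44 and ZEB1 were present in all 4 libraries. The hormone receptor genes ESR1 and PGR were at 0 and the epithelial CDH1 at no more than 1 spliced read. EPCAM, also epithelial, had 8 and 3 spliced reads in H3B-8800 cells and 3 and 15 in DMSO cells. Of the markers of other cell types, ALB was at 0. PECAM1 had 57 and 33 spliced reads in H3B-8800 cells and 38 and 27 in DMSO cells. Fewer cells and less RNA per cell cannot be told apart in such bulk libraries.

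Spliced USP RNA moved in both directions in H3B-8800 cells. Levels are given in CPM, spliced reads per 1000000 after TMM scaling. Of the 41 USP genes whose mean reached 1 CPM, 17 rose, 13 fell and 11 did not pass the test. Over all 9468 genes tested, 32.8% rose and 32.7% fell, so the USP counts lay near the background. The test was edgeR's quasi-likelihood test with Benjamini-Hochberg adjustment over all genes and a threshold of 0.05. The median log2 change was -0.01 over the 41 USP genes and 0.01 over all genes. The other 6 genes, USP6, USP29, USP44, USP49, USP50 and USP51, were below that level, and USP49 was the only one of them with any spliced read. Per intron, the family was led by USP10, USP7, USP39 and USP22, with mean levels of 30.6, 25.7, 21.6 and 18.9 CPM per intron in H3B-8800 cells and 17.6, 22.5, 17.8 and 13.4 CPM per intron in DMSO cells. Scaling by library totals lowered the median of all genes to -0.16 and gave 14 USP genes higher and 18 lower.

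**Figure D1:**
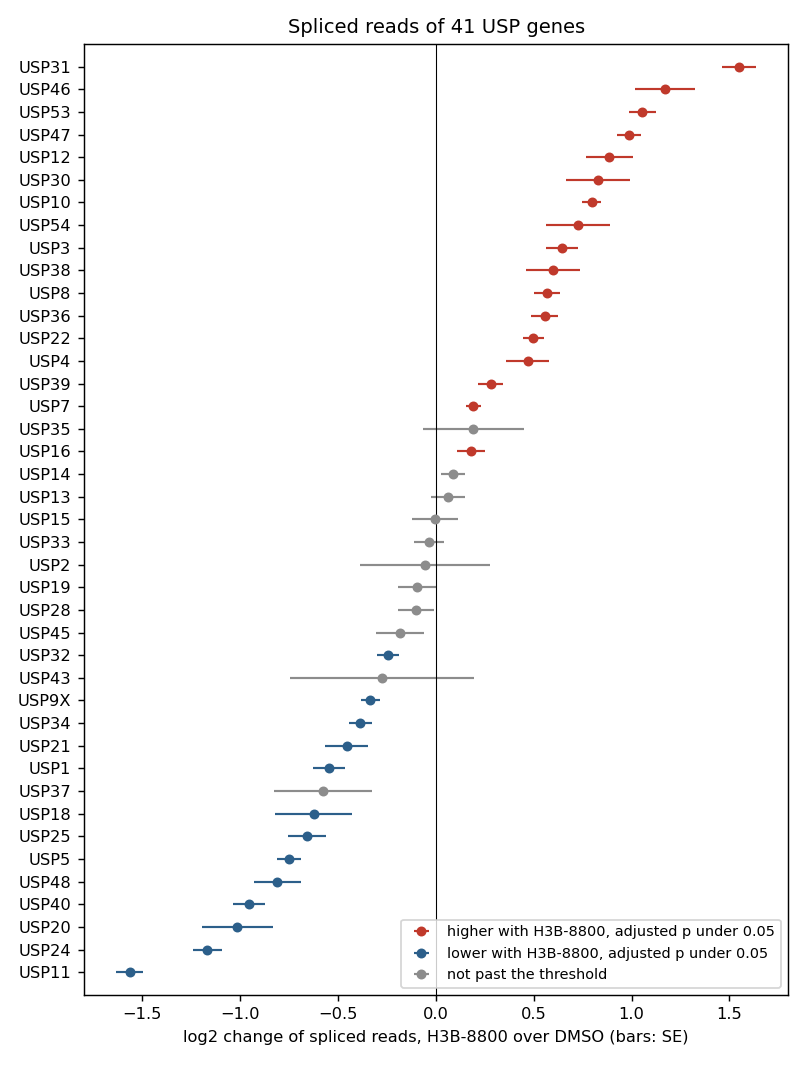
Log2 change of spliced reads, H3B-8800 over DMSO, for the 41 USP genes tested, with points for the fitted change and bars for its SE. The changes ran between 1.55 for USP31 at the top and -1.57 for USP11 at the bottom, and colour marks the 17 genes that rose, the 13 that fell and the 11 that did not pass.

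The role lists that follow are small and were not tested as groups. Their counts stand beside the 32.8% of all genes tested that rose and the 32.7% that fell. Among the USPs of ubiquitin recycling, 1 of 3 genes changed. USP5, which takes apart free ubiquitin chains, measured 96.7 and 92.7 CPM in H3B-8800 cells, against 161 and 157 CPM in DMSO cells. It fell by 0.75 on the log2 scale (SE 0.06; adjusted p = 2.27e-07), and the groups did not overlap. USP14, which trims chains on the proteasome, measured 167 and 155 CPM in H3B-8800 cells, against 147 and 156 CPM in DMSO cells. These values overlapped, with a log2 change of 0.09 (SE 0.06; adjusted p = 0.215). USP13, a close relative of USP5, had a log2 change of 0.06 (SE 0.09).

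Of the 10 USPs listed for DNA damage and replication, 2 rose, 4 fell and 4 did not pass. USP11, a deubiquitinase of homologous recombination repair, had the lowest adjusted p of all falling USP genes. It measured 44.1 and 43.7 CPM in H3B-8800 cells, against 127 and 133 CPM in DMSO cells, and was 2.96-fold lower (log2 -1.57, SE 0.07; adjusted p = 1.64e-09). Both H3B-8800 libraries lay far below both DMSO libraries. The fall was seen along the whole transcript: at its 20 junctions the log2 ratio of spliced reads, scaled by library totals, lay between -2.34 and -1.39. With that scaling the log2 change of the gene was -1.74.

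USP24, a very large member with 67 introns, measured 46.3 and 47.5 CPM in H3B-8800 cells, against 102 and 109 CPM in DMSO cells. It was 2.25-fold lower (log2 -1.17, SE 0.07; adjusted p = 2.25e-08). USP48, known to limit BRCA1-dependent ubiquitination of histone H2A, measured 19.0 and 25.4 CPM in H3B-8800 cells, against 39.1 and 38.9 CPM in DMSO cells. It fell by 0.81 on the log2 scale (SE 0.12; adjusted p = 5.68e-05), with more spread between its H3B-8800 libraries than between its DMSO libraries.

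USP1, which removes ubiquitin from PCNA and the Fanconi anaemia protein FANCD2, measured 42.7 and 38.4 CPM in H3B-8800 cells, against 60.0 and 58.3 CPM in DMSO cells. Its spliced reads fell by 0.55 on the log2 scale (SE 0.08; adjusted p = 7.07e-05), and the groups did not overlap. USP47, a deubiquitinase of DNA polymerase beta, moved the other way. It measured 145 and 145 CPM in H3B-8800 cells, against 73.7 and 72.5 CPM in DMSO cells, and rose 1.98-fold (log2 0.99, SE 0.06; adjusted p = 2.28e-08). USP3, which acts on ubiquitinated histones, also rose, by 0.64 on the log2 scale (SE 0.08). USP28, USP37, USP43 and USP45 did not pass, with log2 changes between -0.58 and -0.10. With scaling by library totals USP28 (adjusted p = 0.0148), USP37 (adjusted p = 0.0153) and USP45 (adjusted p = 0.0181) were called lower. The USP37 fall was also called without its most-read intron and without the first DMSO library.

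Of the USPs that act on p53 or MDM2, 2 of 3 genes tested rose. USP10, a deubiquitinase of p53, measured 376 and 359 CPM in H3B-8800 cells, against 210 and 213 CPM in DMSO cells. It rose 1.74-fold (log2 0.80, SE 0.05; adjusted p = 1.69e-08), with no overlap. USP7, which stabilises MDM2 and p53, measured 729 and 712 CPM in H3B-8800 cells, against 636 and 626 CPM in DMSO cells. Its rise was small, 1.14-fold (log2 0.19, SE 0.04; adjusted p = 0.000786). With scaling by library totals the log2 change of USP7 was 0.01 (adjusted p = 0.756). USP2 had a log2 change of -0.06 (SE 0.33) at 3.28 CPM in H3B-8800 cells and 3.41 CPM in DMSO cells.

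Of the USPs of histones and chromatin, 3 of 4 genes tested rose and 1 fell. USP22, the deubiquitinase of the SAGA coactivator complex, measured 228 and 226 CPM in H3B-8800 cells, against 165 and 156 CPM in DMSO cells. It rose 1.41-fold (log2 0.50, SE 0.05; adjusted p = 3.14e-06), and the groups did not overlap. The nucleolar USP36 rose by 0.56 (SE 0.07), while USP21, which acts on histone H2A, fell by 0.46 (SE 0.11), both on the log2 scale. USP16, another H2A deubiquitinase, rose by 0.18 on the log2 scale (adjusted p = 0.0389), but had a log2 change of 0.00 with scaling by library totals (adjusted p = 0.978). The USP16 call was also lost with DESeq2, with no filter but at least 1 read, without the second H3B-8800 library and without either DMSO library.

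USP12 and USP46 share with USP1 the activating partner WDR48. USP46 rose 2.25-fold and USP12 rose 1.85-fold, to 19.9 ± 2.34 and 33.8 ± 3.74 CPM in H3B-8800 cells, against 8.83 ± 0.293 and 18.3 ± 2.21 CPM in DMSO cells (SD, n = 2 each). WDR48 itself rose by 0.62 on the log2 scale (SE 0.08; adjusted p = 1.53e-05). In this group of 3, USP1 was the gene that fell.

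Of the USPs of growth factor and TGF-β signalling, 1 of 4 rose and 2 fell. USP9X, a deubiquitinase of SMAD4 and many other proteins, measured 296 and 285 CPM in H3B-8800 cells, against 370 and 362 CPM in DMSO cells. It fell by 0.34 on the log2 scale (SE 0.05; adjusted p = 3.23e-05), and the groups did not overlap. USP9X has a closely related copy on chromosome Y, and how shared reads were assigned is not given. USP34, a Wnt pathway member that acts on axin, fell by 0.39 (SE 0.06) on the log2 scale. USP4, which acts on the TGF-β receptor, rose by 0.47 (SE 0.11) on that scale, a call lost without the second H3B-8800 or the first DMSO library. USP15, a deubiquitinase of receptor-activated SMADs, had a log2 change of -0.01 (SE 0.12).

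Of the USPs of endosomes, Golgi and endoplasmic reticulum, 1 of 6 genes tested rose and 3 fell. USP8, which sorts receptors on endosomes together with STAM, measured 100.1 and 99.5 CPM in H3B-8800 cells, against 68.1 and 66.7 CPM in DMSO cells. It rose 1.48-fold (log2 0.57, SE 0.07; adjusted p = 7.34e-06), without overlap. USP20 fell by 1.01 on the log2 scale (SE 0.18), as did USP25, a factor of endoplasmic reticulum-associated degradation, by 0.66 (SE 0.10). USP32 fell by 0.24 on the log2 scale (SE 0.06). USP19 and USP33 did not pass, but were called lower with scaling by library totals. USP32 and USP6 are alike in sequence, but no library had a spliced read of USP6.

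The mitochondrial USP30, which opposes Parkin-driven mitophagy, rose by 0.83 on the log2 scale (SE 0.16), while USP35 did not pass. USP18, which removes the ubiquitin-like protein ISG15, fell by 0.63 on the log2 scale (SE 0.20; adjusted p = 0.0129) at 7.64 ± 1.92 CPM in H3B-8800 cells and 11.7 ± 0.101 CPM in DMSO cells (SD, n = 2 each). USP18 has a near-identical copy, USP41, so its reads are uncertain. The USP18 call was lost without the second H3B-8800 or the second DMSO library.

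All 3 tested members of the list drawn up for inactive proteases rose, a small list beside the 32.8% of all genes tested that rose. Whether each of them lacks protease activity was not examined here. USP39, a component of the tri-snRNP of the spliceosome, measured 156 and 146 CPM in H3B-8800 cells, against 121 and 128 CPM in DMSO cells. It rose 1.21-fold (log2 0.28, SE 0.06; adjusted p = 0.00155). With scaling by library totals the USP39 log2 change was 0.10 (adjusted p = 0.157). USP53, a protein of tight junctions, measured 175 and 167 CPM in H3B-8800 cells, against 77.4 and 87.2 CPM in DMSO cells. It rose 2.08-fold (log2 1.05, SE 0.07; adjusted p = 3.28e-08), and the groups did not overlap. USP54 rose by 0.73 on the log2 scale (SE 0.16), a call lost without the first H3B-8800 library.

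The largest rise was that of USP31, a little-studied member linked to NF-κB signalling. It measured 77.4 and 83.3 CPM in H3B-8800 cells, against 29.2 and 25.7 CPM in DMSO cells, a 2.93-fold difference (log2 1.55, SE 0.09; adjusted p = 9.44e-09). USP38 also rose, by 0.60 on the log2 scale (SE 0.14). USP40, whose targets are poorly known, measured 39.2 and 45.1 CPM in H3B-8800 cells, against 82.0 and 81.6 CPM in DMSO cells, and was 1.94-fold lower (log2 -0.96, SE 0.08; adjusted p = 3.86e-07).

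Intronic reads took a larger part of USP RNA in H3B-8800 cells. They were 7.40% and 7.61% of USP reads in H3B-8800 cells, against 3.57% and 3.35% in DMSO cells, or 7.51 ± 0.148% and 3.46 ± 0.153% (SD, n = 2 each), a ratio of 2.17. Over all introns in the files the means were 8.22% in H3B-8800 cells and 4.24% in DMSO cells, a ratio of 1.94. USP1 weighed on the USP value: without it the shares were 6.24% in H3B-8800 cells and 3.41% in DMSO cells, a ratio of 1.83. These shares are a description, since 0.333 is the smallest two-sided p that exact permutation of 2 against 2 libraries allows.

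Of the 32 USP genes with a mean of at least 10 intronic reads, 20 rose in intronic reads, 1 fell and 11 did not pass. Over all 7900 genes tested, 58.3% rose and 4.37% fell. The median log2 change was 1.17 over the USP genes and 1.04 over all genes, with scaling by library totals. TMM scaling of intronic reads lowered the median of all genes to 0.02 and left 4 USP genes higher and 5 lower. Without either H3B-8800 library no gene in the files passed, with smallest adjusted p values of 0.0525 and 0.0544 by edgeR; 15 USP genes were higher and 1 lower at an unadjusted p under 0.05 in each case.

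**Figure D2:**
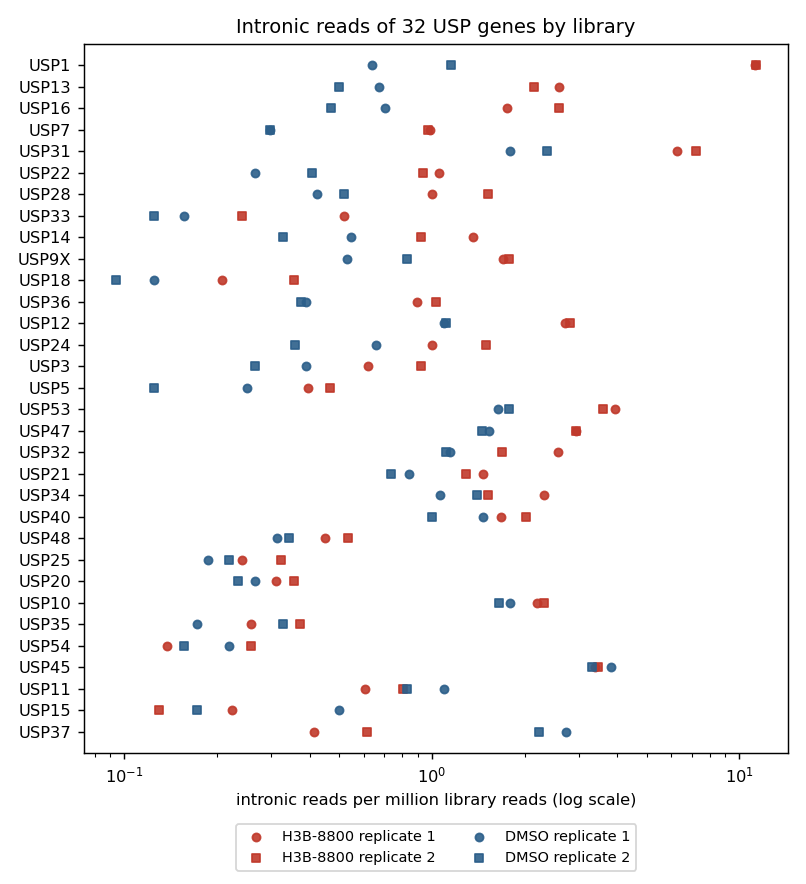
Intronic reads per 1000000 library reads (log axis) of the 32 USP genes tested, 1 point per library, ordered by the fitted log2 change. USP1 at the top stands at the right end in H3B-8800 cells, USP37 at the bottom is the gene that fell, and the H3B-8800 points lie right of the DMSO points in most other genes.

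USP1 gained the most intronic reads of the family. It had 650 and 704 intronic reads in H3B-8800 cells, against 41 and 74 in DMSO cells, and rose by 3.65 on the log2 scale (SE 0.18; adjusted p = 3.68e-14). Intronic reads were 57.1% and 59.6% of all USP1 reads in H3B-8800 cells, against 4.54% and 8.11% in DMSO cells. USP1 made up 32.5% of the net gain of USP intronic reads, scaled by library totals. USP31 followed with 362 and 448 intronic reads in H3B-8800 cells, against 115 and 151 in DMSO cells (log2 1.70, SE 0.16; adjusted p = 3.87e-09). USP53 came next, with 228 and 224 reads in H3B-8800 cells and 105 and 114 in DMSO cells (log2 1.14, SE 0.17; adjusted p = 5.89e-06). In all of these the groups stood clear of each other.

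Intronic reads also rose in USP7, with 57 and 60 reads in H3B-8800 cells and 19 and 19 in DMSO cells (log2 1.71, SE 0.36). USP22 had 61 and 58 intronic reads in H3B-8800 cells, against 17 and 26 in DMSO cells (log2 1.56, SE 0.36), and USP9X had 99 and 110 in H3B-8800 cells, against 34 and 53 in DMSO cells (log2 1.35, SE 0.27). USP14 had 79 and 57 intronic reads in H3B-8800 cells, against 35 and 21 in DMSO cells (log2 1.38, SE 0.34), but its call was lost when introns that overlap an annotated exon were left out. USP39 had 12 and 15 intronic reads in H3B-8800 cells, against 6 and 5 in DMSO cells, too few to be tested.

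USP37, which stabilises cyclin A, was the 1 gene that fell. It had 24 and 38 intronic reads in H3B-8800 cells, against 174 and 143 in DMSO cells, and fell by 2.26 on the log2 scale (SE 0.26; adjusted p = 1.02e-07). Most of these reads lay in its intron 10, described with the other introns. USP45, a deubiquitinase of the repair nuclease subunit ERCC1, had similar numbers in both groups, 196 and 215 in H3B-8800 cells and 245 and 212 in DMSO cells (log2 -0.06, SE 0.16, adjusted p = 0.749). This depended on the processing. With TMM scaling of intronic reads USP45 was called lower (log2 -1.08, adjusted p = 5.37e-06). Without introns that overlap an annotated exon, its intronic reads relative to its spliced reads were called higher (adjusted p = 0.0341). USP11 had 35 and 50 intronic reads in H3B-8800 cells and 70 and 53 in DMSO cells (log2 -0.44, SE 0.31; adjusted p = 0.216).

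Intronic reads rose among USP genes whose spliced reads rose and among those whose spliced reads fell. Of the 11 genes with higher spliced reads tested for both, 9 had higher intronic reads (81.8%, against 68.9% of all such genes). Of the 13 genes with lower spliced reads, 7 had higher intronic reads (53.8%, against 54.5% of all such genes). USP31, USP47, USP53 and USP12 belonged to the first set and USP1, USP24, USP9X and USP40 to the second.

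**Figure D3:**
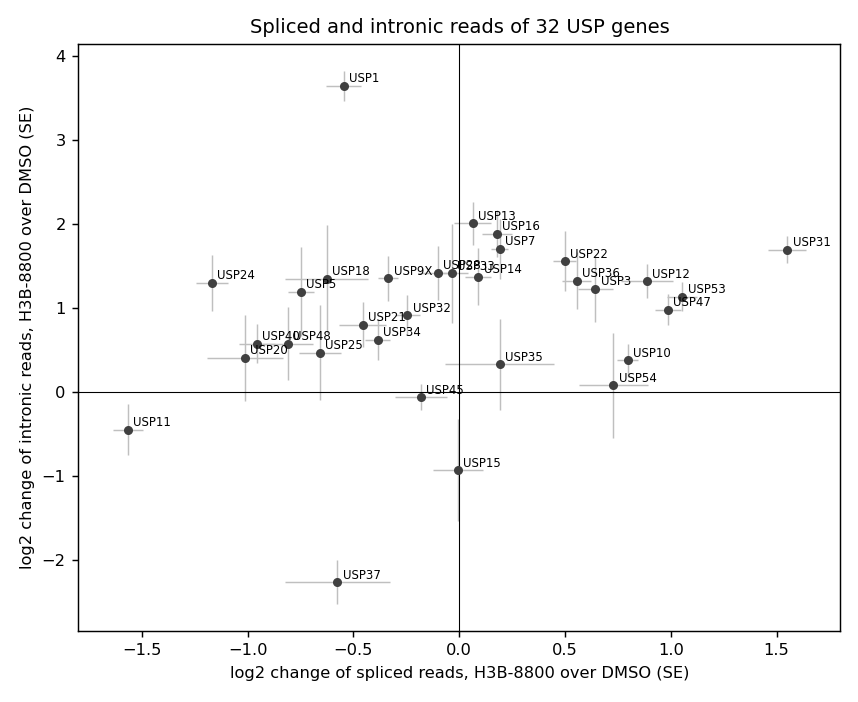
Log2 change of intronic reads against log2 change of spliced reads, H3B-8800 over DMSO, for 32 USP genes, with SE bars on both axes. USP1 lies alone at the top left with 3.65 on the intronic axis, USP31 at the far right with 1.55 on the spliced axis, and USP37 at the bottom with -2.26 on the intronic axis.

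Set against the spliced reads of the same gene and library, intronic reads were higher in H3B-8800 cells in 21 of 32 USP genes and lower in 1, against 65.4% and 2.35% of all genes tested. The median log2 change of this ratio was 1.31 over USP genes and 1.35 over all genes. USP1 led with 4.39 (SE 0.28; adjusted p = 6.40e-09), followed by USP24 with 2.64 (SE 0.34; adjusted p = 5.82e-06). The change was 1.87 (SE 0.26) for USP9X, 1.69 (SE 0.28) for USP7, 1.45 (SE 0.32) for USP14 and 1.24 (SE 0.31) for USP22, all past the threshold. Without introns that overlap an annotated exon the USP14 change was 0.65 and did not pass (adjusted p = 0.276). The ratio fell in USP37 (log2 -1.51, SE 0.44; adjusted p = 0.00671), a call lost without the first H3B-8800 or the first DMSO library. All 13 USP genes with lower spliced reads had a higher ratio, against 86.4% of all such genes. Of the 11 with higher spliced reads, 4 had a higher ratio (36.4%, against 50.6% of all such genes). The ratio did not pass in USP31 (log2 0.32, adjusted p = 0.258), USP53 (0.26, adjusted p = 0.298), USP47 (0.17, adjusted p = 0.509) or USP12 (0.61, adjusted p = 0.0645). The spliced reads enter both measures.

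Reads inside USP genes came from few introns, counted for USP introns only, without a value over all introns beside it. No intronic read lay in 457 of the 824 USP introns in H3B-8800 cells and in 533 in DMSO cells, and the 10 fullest introns held 43.5% of USP intronic reads in H3B-8800 cells and 46.0% in DMSO cells. Of 49 USP introns with a mean of at least 10 intronic reads, 30 rose and 4 fell, against 48.2% and 5.74% of all introns tested. Of 40 USP introns with enough reads of both kinds, the ratio rose in 22 and fell in 3, against 56.5% and 2.88% of all introns tested.

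Of the 7 introns listed for USP1, the 3 with enough reads to be tested gained intronic reads. Intron 4, at chr1:62443320-62444737 (hg38, plus strand), had 211 and 253 intronic reads in H3B-8800 cells, against 6 and 10 in DMSO cells. Its spliced reads were 66 and 71 in H3B-8800 cells, against 202 and 182 in DMSO cells. The log2 ratio of the 2 kinds of read rose by 6.32 (SE 0.42; adjusted p = 7.34e-07), the lowest adjusted p of the USP introns. An annotated exon of USP1 overlaps this intron, so some of its reads may belong to that exon.

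Intron 7 of USP1, the last one, at chr1:62448667-62450245, had 394 and 361 intronic reads in H3B-8800 cells, against 30 and 61 in DMSO cells. It had 45 and 39 spliced reads in H3B-8800 cells, against 98 and 73 in DMSO cells, and its ratio rose by 4.10 (log2, SE 0.45; adjusted p = 1.98e-05). No annotated exon lies inside it. Intron 6, at chr1:62447512-62448464 and named after its values were seen, had 35 and 80 intronic reads in H3B-8800 cells and none in either DMSO library, so no fold is given. Introns 1, 2, 3 and 5 of USP1 had at most 6 intronic reads in any library and could not be tested. Intron 5, between introns 4 and 6, had 4 and 6 intronic reads in H3B-8800 cells, against 2 and 2 in DMSO cells.

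**Figure D4:**
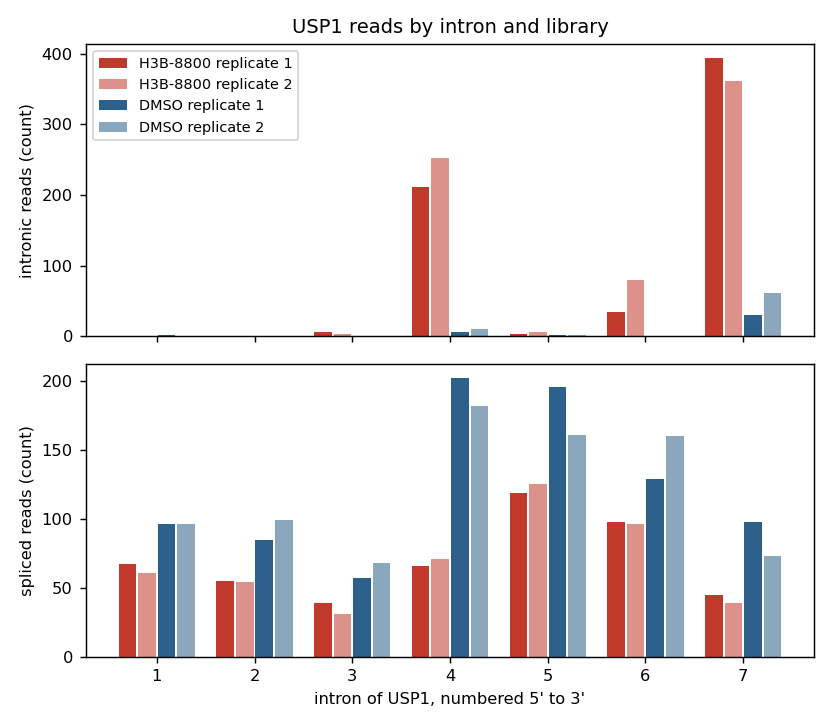
Intronic reads (top) and spliced reads (bottom) at each of the 7 introns listed for USP1 in each library, H3B-8800 in red and DMSO in blue. Intronic reads stand at introns 4, 6 and 7 in H3B-8800 cells, and spliced reads are lower in H3B-8800 cells at every intron.

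The spliced USP1 message is shown at these 3 junctions, as the sequence that lost reads in H3B-8800 cells. Each line gives 30 bases of the upstream exon in lower case and 30 of the downstream exon in capitals, 5′ to 3′, from the GENCODE release 29 transcript on hg38.
USP1 junction of intron 4: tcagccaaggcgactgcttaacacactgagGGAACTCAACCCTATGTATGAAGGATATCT
USP1 junction of intron 6: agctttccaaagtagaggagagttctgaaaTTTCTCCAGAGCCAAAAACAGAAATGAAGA
USP1 junction of intron 7: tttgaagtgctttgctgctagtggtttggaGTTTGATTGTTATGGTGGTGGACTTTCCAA

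The ratio also rose at single introns of USP9X, USP22, USP36 and USP16. Intron 38 of USP9X, at chrX:41219232-41223216 (plus strand), had 36 and 50 intronic reads in H3B-8800 cells, against 10 and 8 in DMSO cells. Its ratio rose by 3.05 (log2, SE 0.51; adjusted p = 0.000372). Intron 12 of USP22, its last, at chr17:21003074-21004201 (minus strand), had 27 and 28 intronic reads in H3B-8800 cells, against 2 and 2 in DMSO cells, and its ratio rose by 3.41 (log2, SE 0.60; adjusted p = 0.000514). In both, the 2 H3B-8800 libraries lay well above the 2 DMSO libraries.

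Intron 15 of USP36, at chr17:78803979-78806155 (minus strand), had 25 and 31 intronic reads in H3B-8800 cells, against 2 and 0 in DMSO cells, and its ratio passed with an adjusted p of 0.00144. Intron 14 of USP16, at chr21:29050179-29053801 (plus strand), had 28 and 50 in H3B-8800 cells, against 10 and 8 in DMSO cells (log2 ratio change 2.27, SE 0.48; adjusted p = 0.00169). The USP9X, USP22 and USP36 introns hold no annotated exon, while that of USP16 overlaps one.

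The ratio fell at 3 USP introns, each intron 3 of its gene. Intron 3 of USP10, at chr16:84745674-84758715 (plus strand), had 43 and 40 intronic reads in H3B-8800 cells, against 91 and 92 in DMSO cells. Its spliced reads went the other way, with 141 and 146 in H3B-8800 cells, against 56 and 60 in DMSO cells. The ratio fell by 2.44 on the log2 scale (SE 0.38; adjusted p = 0.000221). The junction that gained reads, with the upstream exon in lower case and the downstream exon in capitals, reads as follows.
USP10 junction of intron 3: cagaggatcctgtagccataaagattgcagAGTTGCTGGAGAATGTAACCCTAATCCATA

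Intron 3 of USP53, at chr4:119217674-119239217, had 15 and 13 intronic reads in H3B-8800 cells, against 62 and 62 in DMSO cells (log2 ratio change -1.58, SE 0.47; adjusted p = 0.0125). Intron 3 of USP15, at chr12:62302921-62314789, had 1 and 2 in H3B-8800 cells, against 32 and 11 in DMSO cells, and its ratio passed with an adjusted p of 0.00912. Both overlap an annotated exon. The USP53 call was lost without the second H3B-8800 or the first DMSO library, and the USP15 call without either H3B-8800 library.

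A further 3 introns, named after their values were seen, carried most intronic reads of their gene. Intron 13 of USP31, at chr16:23073881-23079945, had 315 and 398 intronic reads in H3B-8800 cells, against 104 and 134 in DMSO cells, or 88.0% of USP31 intronic reads in H3B-8800 cells. It had at most 3 spliced reads in any library, and an annotated USP31 exon overlaps it. Intron 10 of USP37, at chr2:218510141-218529955, had 18 and 16 in H3B-8800 cells, against 158 and 135 in DMSO cells, and also overlaps an annotated exon of its gene. Intron 12 of USP13, at chr3:179742351-179745042, has none and had 101 and 107 in H3B-8800 cells, against 16 and 14 in DMSO cells (log2 2.88, SE 0.30; adjusted p = 2.39e-05).

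The 3′ ends of introns, where the target of H3B-8800 acts, could be read for 6 tested USP introns whose 3′ end lies inside an annotated GENCODE release 29 transcript. Each line gives 40 intron bases and 5 exon bases, 5′ to 3′ on the gene's strand, with the last 30 intron bases in capitals. The ratio rose in the first 4 and did not pass in the last 2.
USP21 intron 9, chr1:161164613-161164834: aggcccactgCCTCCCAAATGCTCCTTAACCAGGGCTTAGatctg
USP14 intron 4, chr18:192901-196636: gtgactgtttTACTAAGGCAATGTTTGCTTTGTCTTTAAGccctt
USP40 intron 17, chr2:233512623-233519613: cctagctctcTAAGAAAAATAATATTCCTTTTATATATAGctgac
USP16 intron 14, chr21:29050179-29053801: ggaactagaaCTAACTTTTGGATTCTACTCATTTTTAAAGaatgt
USP34 intron 62, chr2:61223297-61227066: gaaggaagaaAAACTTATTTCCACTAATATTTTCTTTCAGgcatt
USP9X intron 31, chrX:41201281-41205302: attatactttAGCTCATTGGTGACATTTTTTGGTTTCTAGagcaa

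Pyrimidines made up 60.0%, 56.7%, 46.7% and 63.3% of the capital letters in the USP21, USP14, USP40 and USP16 introns. They made up 66.7% in the USP34 and 60.0% in the USP9X intron. With 6 introns, all of which overlap an annotated exon, no comparison was made. Intron 4 of USP14 had 58 and 42 intronic reads in H3B-8800 cells, against 16 and 12 in DMSO cells (log2 ratio change 2.37, SE 0.53; adjusted p = 0.00237). Intron 31 of USP9X had 10 intronic reads in every library.

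Reads of USP introns were also summed by the position of the intron among those listed for its gene, and by its length. Last introns had 15.6 ± 0.519 intronic reads per 100 spliced reads in H3B-8800 cells, against 2.23 ± 0.257 in DMSO cells (SD, n = 2 each), a ratio of 7.00, which was 4.41 without USP1 and 2.43 over all last introns of the files. Internal USP introns had 7.50 in H3B-8800 cells and 3.55 in DMSO cells, a ratio of 2.12. First introns of USP genes had 6.32 ± 0.145 in H3B-8800 cells and 7.36 ± 1.25 in DMSO cells (SD, n = 2 each). The ratio was 0.858, against 1.46 over all first introns of the files. Without first introns that overlap an annotated exon the direction turned, with 4.67 in H3B-8800 cells and 3.58 in DMSO cells, a ratio of 1.31. These values were not tested.

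By length, USP introns of up to 150 bp had 1.56 and 1.64 intronic reads per 100 spliced reads in H3B-8800 cells, against 0.476 and 0.0800 in DMSO cells. The DMSO values rest on 24 and 4 intronic reads and differ too much between libraries for a firm ratio; over all introns of that length in the files the ratio was 3.42. USP introns over 10000 bp had 30.2 ± 2.35 in H3B-8800 cells and 41.5 ± 6.61 in DMSO cells (SD, n = 2 each), a ratio of 0.729, against 1.28 over all introns of that length. Without introns that overlap an annotated exon, the ratio of these long USP introns was 0.969. The class held 500 and 490 intronic reads in H3B-8800 cells, against 702 and 612 in DMSO cells. Intron 3 of USP10, USP53 and USP15 and intron 10 of USP37, described above with fewer intronic reads in H3B-8800 cells, belong to it. They weigh on its ratio, and the class was not summed without them. USP introns over 150 and up to 1000 bp had 2.26 ± 0.236 in H3B-8800 cells and 0.679 ± 0.0492 in DMSO cells (SD, n = 2 each). Their ratio was 3.32, against 2.715 over all introns of that length. Those over 1000 and up to 10000 bp had 11.9 ± 0.243 in H3B-8800 cells and 4.03 ± 0.0105 in DMSO cells. Their ratio was 2.95, against 2.24 over all introns of that length. Without USP1 the ratios of these classes were 2.78 and 2.38.

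The tested USP genes were also counted by the number of introns listed for them, which may be fewer than the gene has. Of 14 USP genes with 20 or more introns, 8 fell in spliced reads and 3 rose, against 46.3% and 25.8% of all such genes. Of 20 with 10 to 19 introns, 4 fell and 9 rose, against 38.9% and 32.9% of all such genes. Of 7 with fewer than 10 introns, 1 fell and 5 rose, against 27.3% and 34.0% of all such genes; the 1 that fell was USP1. The differences between these classes were not tested.

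The part of the spliced reads that lay toward the 3′ end was smaller in H3B-8800 cells in some USP genes and larger in others. The share of a gene's spliced reads at introns numbered above the middle of its listed introns was compared. The comparison covered 31 USP genes with at least 10 listed introns, with a measure chosen after the values were seen. Both H3B-8800 libraries lay below both DMSO libraries in 13 of them (41.9%) and above both in 8 (25.8%), against 33.1% and 14.4% of all such genes. The median difference, H3B-8800 minus DMSO, was -1.3 percentage points over these USP genes and -1.1 over all such genes. For the 14 USP genes with 20 or more introns the counts were 8 (57.1%) and 2 (14.3%). Over all genes with 20 or more introns the shares were 40.8% and 10.3%. USP24 had 52.1% and 57.6% in H3B-8800 cells, against 73.4% and 69.9% in DMSO cells. USP9X had 80.7% and 81.0% in H3B-8800 cells, against 86.4% and 84.3% in DMSO cells. USP34, with 79 introns, had 79.7% and 76.6% in H3B-8800 cells, against 85.0% and 82.2% in DMSO cells.

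USP53 and USP37 shifted the other way. USP53 had 84.4% and 84.2% of its spliced reads in the 3′ part in H3B-8800 cells, against 77.6% and 75.8% in DMSO cells. USP37 had 67.7% and 76.9% in H3B-8800 cells, against 31.5% and 36.9% in DMSO cells, on 65 and 52 spliced reads in H3B-8800 cells and 89 and 122 in DMSO cells. USP11, whose spliced reads fell most, had 64.2% and 63.0% in H3B-8800 cells and 61.2% and 64.3% in DMSO cells, which overlapped.

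**Figure D5:**
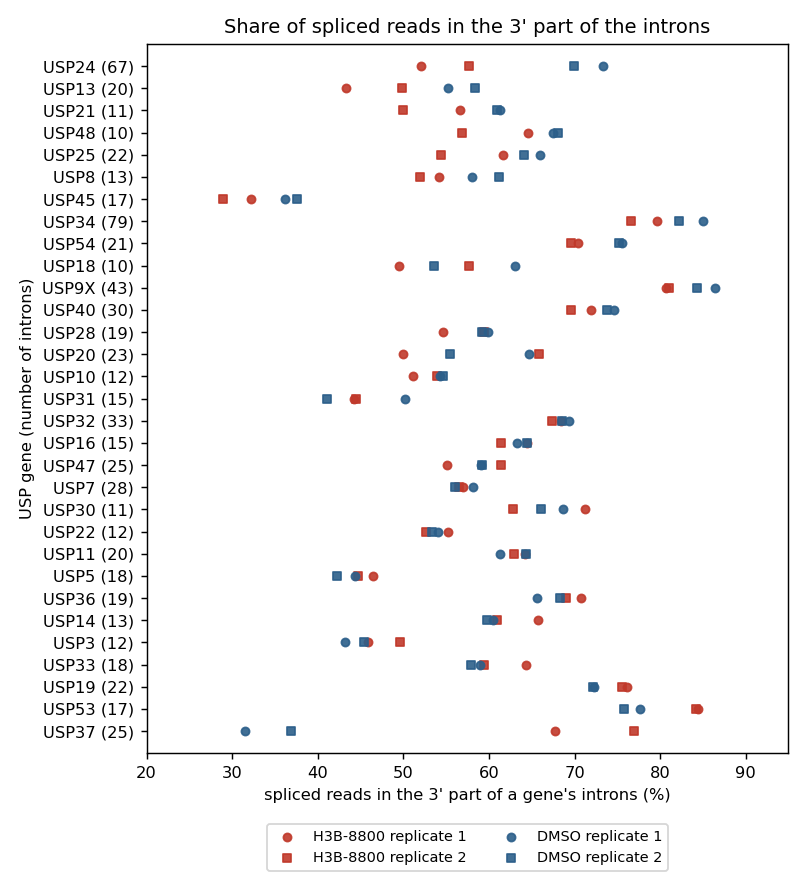
Share of spliced reads (%) at introns numbered above the middle of the gene, 1 point per library, for 31 USP genes with the number of introns in brackets, ordered by the difference. The H3B-8800 points lie left of the DMSO points at the top, led by USP24, and right of them at the bottom, where USP37 has the widest gap.

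Of 27 tested deubiquitinases of other families, 10 rose and 10 fell in spliced reads (37.0% each), near the 32.8% and 32.7% of all genes. With scaling by library totals 9 rose and 13 fell. OTUB1, a deubiquitinase of the OTU family, fell by 1.02 on the log2 scale (adjusted p = 2.32e-08) and the proteasome-bound UCHL5 fell by 0.76 (adjusted p = 2.01e-07). ZRANB1 rose by 1.02 (adjusted p = 4.25e-08) and the proteasome subunit PSMD14 rose by 0.54 (adjusted p = 4.39e-07).

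Of 12 tested partners of USPs, 5 rose (41.7%) and 2 fell (16.7%), against 32.8% and 32.7% of all genes. With scaling by library totals 3 rose and 4 fell, so the balance turned. STAM, the endosomal partner of USP8, rose by 1.02 on the log2 scale and WDR48 by 0.62, while the USP7 partner GMPS fell by 0.23 and the USP10 partner G3BP1 fell by 0.25. UBA1, a ubiquitin-activating enzyme, fell by 0.46 on the log2 scale (adjusted p = 1.60e-07). With scaling by library totals, STAM, WDR48, GMPS, G3BP1 and UBA1 kept their direction and passed. CYLD and USPL1, relatives of the family under other names, rose by 0.86 and 1.58 on the log2 scale in the TMM-scaled fit.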

How the data were processed

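Cytoplasmic RNA of SUM159 cells was analysed in 2 H3B-8800 and 2 DMSO libraries, made with a stranded polyA kit per the labels' protocols. The series' design text calls them biological duplicates; separate cultures are not described further, so p-values may measure technical spread. The submitters' processing notes name HISAT2 version 2.0.4, hg38 and mm10. The counting method and its use of strand are not given in the sources used here, so overlapping and antisense genes are uncertain.

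The deposited files list, per intron, 2 read counts and an RPKM value, without headers. Spliced reads are the second count minus the first, which was 0 or more at each intron; that meaning was inferred from the values. A read counts at every intron it bridges. Library totals were recovered from the deposited RPKM values. Even numbers were 70.9% to 72.3% of non-zero intronic counts, so both mates of a pair may have been counted, and the reads would then not be independent. For 18 introns no second count was given. Introns were numbered among those listed, which need not be all introns of a gene. First, last and middle positions refer to the listed introns. Of 824 USP introns, 823 matched GENCODE release 29 once start and end were moved inward by 1 base, and coordinates are given so, 1-based; 199 overlap an annotated exon.

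Counts were tested with edgeR 4.0.16 (R 4.3.3), quasi-likelihood, over all genes or introns, with Benjamini-Hochberg adjustment at 0.05. Spliced reads per gene used TMM and a mean of at least 1 CPM. Intronic reads used library totals and a mean of at least 10. The ratio used 1 model of both kinds of read with a term per library and a mean of at least 10 of each. SEs came from the F statistic. DESeq2 1.42.0, other scalings and filters, a replicate block and leaving out each library were alternatives. The tests were also run on simulated counts. These held no general rise of intronic reads, unlike the data here, so nothing is concluded from that run.

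The members, lists and measures were chosen with earlier results of these data known. The genes named are the 6 rising and 6 falling USP genes of lowest adjusted p for spliced reads, the 3 with the most intronic reads gained, and USP39, USP7, USP1, USP14, USP22 and USP9X. Other USP genes are given more briefly, to account for every member of a role list; those of them given with values by library or by group (USP2, USP12, USP18, USP45, USP46), like the genes given for their 3′ share, were picked with their values in view. The introns named are the 6 with the smallest adjusted p for a higher ratio, at most 2 per gene, and up to 4 for a lower one. Each other list is represented by its 2 rising and 2 falling genes of lowest adjusted p, except the list of ubiquitin genes, of which some results are not reported here. Splice sites outside annotated transcripts were not analysed here.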

Additional observations from a re-analysis of the deposited data

How the results depend on the processing

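Counts of USP genes with higher or lower spliced reads stayed within 1.5 times of 17 and 13 under every alternative run. For intronic reads per gene (20 higher, 1 lower), TMM scaling of intronic reads gave 4 and 5, introns without an annotated exon gave 15 and 0, and leaving out 1 library gave 0 to 20 higher and 0 to 2 lower. For the ratio per gene (21 higher, 1 lower), introns without an annotated exon gave 17 and 0, and leaving out 1 library gave 18 to 21 higher and 0 to 2 lower. For intronic reads per intron (30 higher, 4 lower), TMM scaling gave 12 and 10, introns without an annotated exon 19 and 1, and leaving out 1 library 0 to 32 higher and 0 to 6 lower. For the ratio per intron (22 higher, 3 lower), a mean of at least 2 reads gave 19 and 1, introns without an annotated exon 14 and 1, and leaving out 1 library 12 to 18 higher and 1 to 3 lower. The intronic share without introns that overlap an annotated exon was 5.83% with H3B-8800 and 1.98% with DMSO, and the median over USP genes was 7.29% with H3B-8800 and 3.50% with DMSO. Without those introns, 5 rather than 8 USP genes had a higher 3′ share. The cause of these shifts was not tested.

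The labels do not say that a number marks a shared culture or day, so the numbers were not taken as pairs. Same-numbered libraries did not deviate together (correlation over genes 0.069). With a replicate block, the higher and lower counts were 17 and 13 for spliced reads, 19 and 1 for intronic reads per gene, 21 and 1 for the ratio per gene, 27 and 4 for intronic reads per intron, and 20 and 3 for the ratio per intron. With 2 libraries per group and 382 of 824 USP introns at 0 in all libraries, most single introns could not be tested.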
